A study of Neurospora crassa with 12 samples.

Results

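Mycelia of the cys-3- mutant of Neurospora crassa and of wild type were compared after 4 h without any sulfur source, with 3 RNA-seq libraries from separate cultures for each strain. These 6 libraries were chosen by strain and medium alone, out of 12 in the series. The other 6 libraries, 3 of each strain, came from mycelia moved to medium with 24 μM sulfate for the same 4 h and served as the level outside starvation. Both strains were mat a. They were grown from conidia for 24 h at 25°C in constant light, in Vogel's medium that by the sample labels also held 500 mg/L methionine, and were washed before the transfer. In the mutant, a hygromycin resistance cassette stands in place of cys-3 sequence from ahead of the start codon into the reading frame. The mutant is 1 homokaryotic strain, isolated from a heterokaryon of the N. crassa deletion collection, so a difference between the strains and an effect of the deletion cannot be told apart from these libraries alone.

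CYS-3 is a bZIP transcription factor that switches on genes for sulfur uptake and assimilation when the fungus runs short of sulfur, its own gene among them. When sulfur is plentiful, the F-box protein SCON-2 and its partner SCON-3 form part of a ubiquitin ligase complex that restrains CYS-3. The genes that CYS-3 is known for encode sulfate permeases, arylsulfatase and choline sulfatase, which bring in sulfur or free it from organic compounds.

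The values were FPKM, which scale the fragments of a transcript to its length and to the depth of the library, for 9754 genes. Reads implied by the confidence intervals of the FPKM values summed to 7.33 to 11.2 M per library (M, megareads), and Pearson's r between replicates, taken over genes and not over independent samples, was 0.982 to 0.997. Starved wild-type replicate 1 stood apart in the outcome itself: of the 139 genes described next as at least 2-fold lower in the mutant, 129 had their lowest starved wild-type value in that library. Conidia were the other cell type a culture could hold. All 5 conidial markers (con-6, con-8, con-10, con-13 and eas) were detected in both strains and none was at 0, with summed levels of 20.6 to 23.5 FPKM in starved wild type and 31.5 to 35.9 FPKM in the starved mutant. With sulfate the sums were 12.9 to 24.0 FPKM for wild type and 29.95 to 50.1 FPKM for the mutant. The hydrophobin gene eas carried most of each sum, and the part of conidia in the results was not tested.

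Genes were tested where any of the 4 group means reached 10 FPKM. Of the 5035 genes tested, 139 were at least 2-fold lower in the starved mutant than in starved wild type (2.76% of those tested) and 42 were at least 2-fold higher (0.834%). The call asked for an adjusted p under 0.05 from limma and a mean of 10 FPKM in either starved group. The count of higher genes was the less stable one: it was 66 without starved wild-type replicate 1, 104 with a minimum of 1 FPKM and 108 with no minimum. With no fold requirement, 857 genes were lower (17%) and 1032 were higher (20.5%), so most of the difference between the strains was small. Between 1.5- and 2-fold lay 119 lower and 221 higher genes, and under 1.5-fold lay 599 lower and 769 higher genes. The median gene did not move, with a log2 ratio of -0.01. The 2 sides differed in size. The lower genes had a median difference of 3.79-fold, and 43 of them were at least 10-fold and 20 at least 100-fold lower. The higher genes had a median of 2.22-fold, and 2 of them reached 5-fold. With 3 libraries a side, the smallest p of an exact permutation test for a single gene is 0.1, and the adjusted p values are therefore limma's. Replicates of the strains did not overlap for 55.2% of all genes tested.

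**Figure D1:**
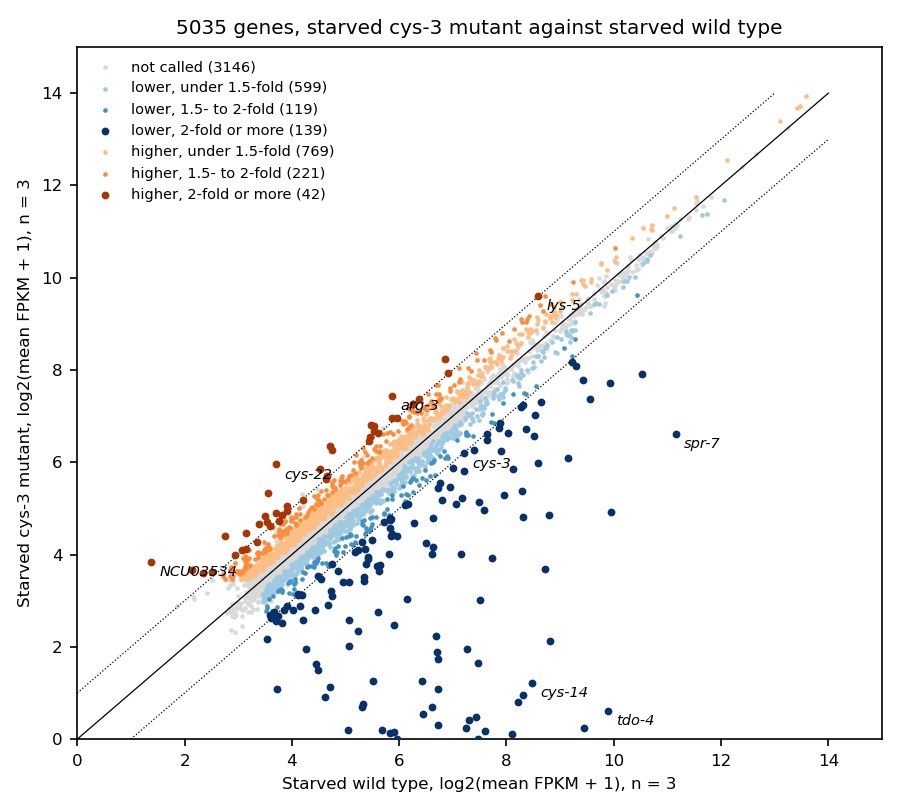
Mean FPKM of each of 5035 genes in starved wild type (x axis) and in the starved cys-3- mutant (y axis), both as log2(mean FPKM + 1) of 3 libraries, with the line of equal level and dotted lines at 2-fold. The 139 genes at least 2-fold lower spread down to the floor of the y axis, while the 42 genes at least 2-fold higher stay close to the upper dotted line.

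In 24 μM sulfate the strains differed little by the same rule. There, 12 genes passed, 7 lower in the mutant (0.139%) and 5 higher (0.0993%), of which 6 were at least 2-fold lower (0.119%) and 2 at least 2-fold higher (0.0397%). An unadjusted p under 0.05 was reached by 829 genes, limma-voom on the implied reads called 10, and the fit with no minimum on FPKM called 7. The 6 lower genes were cys-11, cys-5, cys-13, cys-2, aap-7 and gst-4, and the 2 higher genes were cys-22 and NCU03534; all 8 were called in the same direction in starvation.

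The regulators came first. The cys-3 gene (NCU03536; chromosome II, 326313 to 331203, NC12 assembly) had 132, 146 and 162 FPKM in starved wild type and 71.1, 72.2 and 73.7 FPKM in the starved mutant. The 3 mutant values lay close together and under every wild-type value, at a level near that of the mutant in 24 μM sulfate (77.2 ± 2.38 FPKM, SD, n = 3). The remainder of the gene is still transcribed in the mutant, and the overlapping gene NCU03535 shares 1563 bases with it in these unstranded libraries, so the FPKM of cys-3 does not check the deletion. On the implied reads the difference of cys-3 was -0.19 on the log2 scale and was not called by limma-voom (adjusted p = 0.11). Those reads summed to 5435 in starved wild type and 4147 in the mutant, a narrower gap than in the FPKM they derive from. The implied reads therefore cannot decide this call. The F-box gene scon-2 (NCU08563) had 36.5, 58.3 and 52.8 FPKM in starved wild type and 12.6, 12.4 and 12.9 FPKM in the starved mutant, a 3.88-fold difference (adjusted p = 5.1e-07). Wild type raised scon-2 from 15.7 FPKM in 24 μM sulfate, where the mutant had 12.7 FPKM. The Skp1 gene scon-3 (NCU08991) had 263 to 320 FPKM in starved wild type and 287 to 296 FPKM in the starved mutant, so the ranges overlapped and it was not called (adjusted p = 0.86).

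All 6 genes listed for the path from sulfate to sulfide were lower in the starved mutant (100%, against 17% of all genes). At least 2-fold lower were 5 of them (83.3%, against 2.76%), and the median log2 ratio was -1.79 against -0.01 for all genes. The study counts 5 genes in this path, and ppy-3, for a cofactor, was added to them here. The largest difference was in cys-5 (NCU02005; chromosome I, 1702853 to 1704727), which encodes phosphoadenosine phosphosulfate reductase. It had 98.6, 107 and 104 FPKM in starved wild type and 3.09, 2.19 and 2.83 FPKM in the starved mutant, 38.1-fold lower (log2 difference of -4.82 ± 0.19, SE; adjusted p = 2.3e-09). The 3 mutant libraries stayed as low as those of the mutant in 24 μM sulfate, which had a mean of 3.14 FPKM where wild type had 30.97 FPKM. The sulfite reductase gene cys-2 (NCU04077) had 122, 164 and 137 FPKM against 16.9, 15.2 and 13.5 FPKM, 9.25-fold lower. For the second subunit, cys-4 (NCU05238) had 95.8, 118 and 102 FPKM against 41.1, 41.5 and 44.5 FPKM, 2.48-fold lower. Both groups were thus separate for both subunits, but the gap was much wider for cys-2. The ATP sulfurylase gene cys-11 (NCU01985) had 349, 369 and 372 FPKM in starved wild type and 95.3, 92.0 and 95.3 FPKM in the mutant, 3.85-fold lower, and the siroheme synthase gene ppy-3 (NCU00602), for the cofactor of sulfite reductase, was 3.12-fold lower (adjusted p = 3.2e-06). The adenylylsulfate kinase gene adsk-1 (NCU09896) was the exception in size, with 381, 362 and 349 FPKM against 270, 268 and 256 FPKM. Its ratio of 1.38-fold was called with an adjusted p of 0.023. The call was lost when any of 5 of the 6 starved libraries was left out (adjusted p = 0.051 to 0.072). It was also lost on the implied reads (adjusted p = 0.81), which have the limit given for cys-3.

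The genes cys-11, cys-5 and cys-2 differed between the strains in both media. With sulfate the mutant had 100 FPKM of cys-11 and 15.3 FPKM of cys-2 where wild type had 223 and 63.3 FPKM, and limma called both (adjusted p = 0.00027 for each). The strain difference was larger in starvation for each of the 3 genes by the interaction test, with adjusted p = 0.0051 for cys-11, 0.00059 for cys-5 and 0.016 for cys-2.

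**Figure D2:**
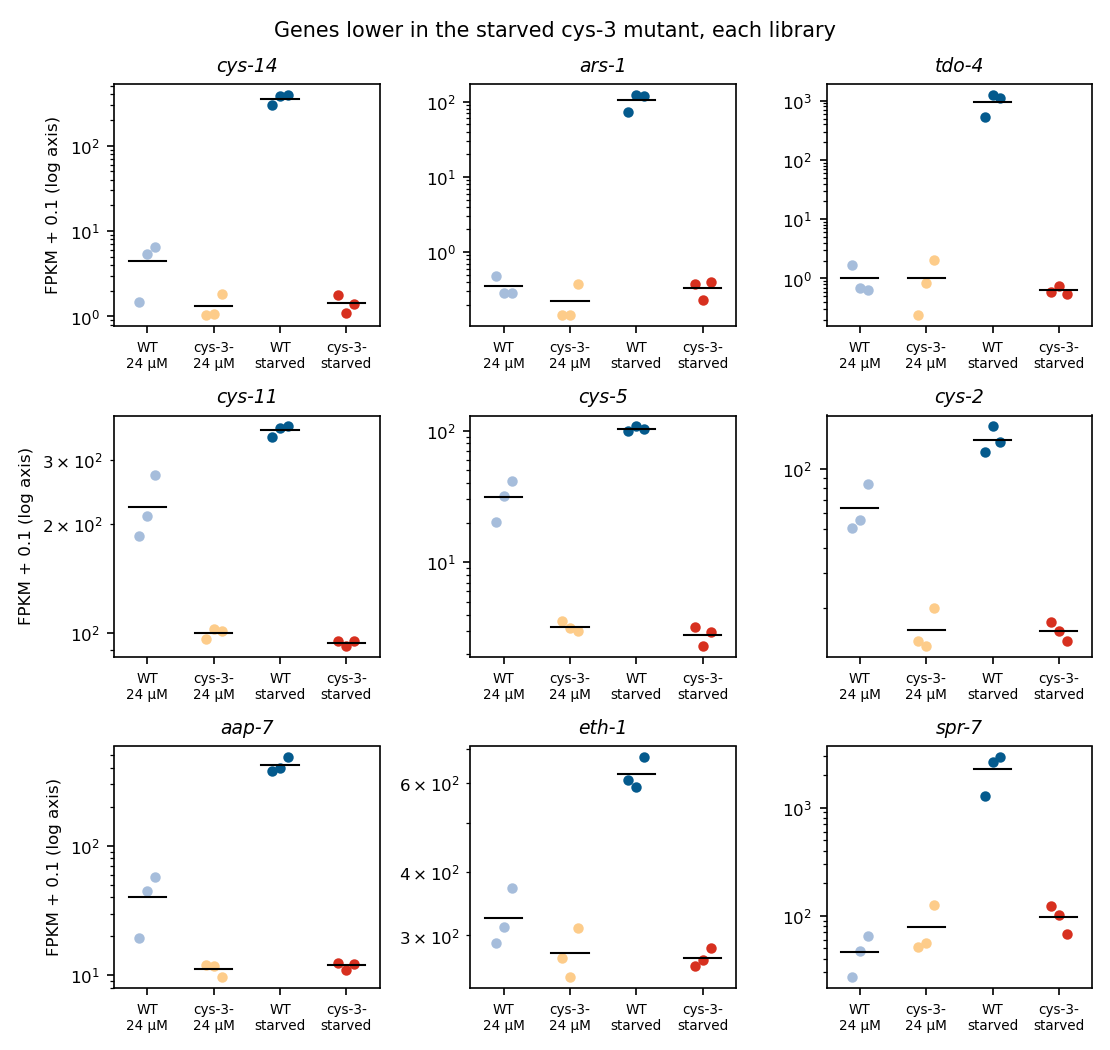
FPKM + 0.1 on log axes for 9 genes lower in the starved cys-3- mutant, 1 point per library and a bar at each group mean (n = 3), with the 24 μM sulfate groups on the left of each panel. The starved wild-type points stand above all others in each panel. Of the genes shown, cys-11, cys-5, cys-2 and aap-7 were also called lower in the mutant in 24 μM sulfate.

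Of 8 sulfur transporters tested, 6 were at least 2-fold lower in the starved mutant (75.0%, against 2.76% of all genes). None was higher, and the median log2 ratio was -4.94. The study proposed a role in sulfur transport for trm-50 from its rise in these samples, so the direction of this list is no independent evidence. One sulfate permease is encoded by cys-14 (NCU04433, on chromosome IV at 3375754 to 3380167). This gene had 296, 383 and 388 FPKM in starved wild type and 1.70, 1.00 and 1.29 FPKM in the starved mutant. That is a difference of 267-fold (log2 difference of -7.26 ± 0.33, SE; adjusted p = 8.3e-09), and no mutant library in either medium came near the starved wild-type level. The second sulfate permease gene, cys-13 (NCU03235), was far less abundant, with 26, 22.7 and 22.2 FPKM against 0.898, 0.764 and 0.988 FPKM, 26.7-fold lower. It was also 1 of the genes called in 24 μM sulfate, where wild type had 10.4 FPKM and the mutant 1.58 FPKM. The methionine permease gene aap-7 (NCU04942) had 376, 401 and 480 FPKM against 12.4, 11 and 12.2 FPKM, 35.4-fold lower, and aap-10 (NCU07754), also annotated as a methionine permease, had 55.8 to 78.8 FPKM against 6.68 to 7.93 FPKM. Another gene annotated so, aap-23 (NCU02195), had 13.4, 83.6 and 71.4 FPKM in starved wild type and at most 0.157 FPKM in the mutant. It shares 2253 bases with NCU02194, from which its reads cannot be told apart. Unlike the values here, the study reports no regulation of aap-23 by CYS-3 or by starvation. The chromate ion transporter gene trm-50 (NCU01055) was 44.6-fold lower. The 2 transporters that were not called, cys-23 (NCU02632) and NCU09642, had 25.7 to 28.1 and 12.7 to 15.2 FPKM in starved wild type and 25.3 to 29 and 12.6 to 12.9 FPKM in the mutant.

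Of 12 tested sulfatases and enzymes that use sulfonates, 10 were at least 2-fold lower (83.3%, against 2.76% of all genes). None was higher, and the median was 105-fold lower. The list holds genes that the study named from these samples, such as NCU05888, so its direction is no independent evidence. Arylsulfatase, the classical reporter of sulfur limitation in this fungus, is encoded by ars-1 (NCU06041, on chromosome VII at 2005289 to 2007359), which had 73.1, 121 and 119 FPKM in starved wild type and 0.273, 0.133 and 0.302 FPKM in the starved mutant, 443-fold lower (adjusted p = 1.3e-09). Its mutant level rested on 18 implied reads over 3 libraries. The choline sulfatase gene chol-16 (NCU08364) had 130, 215 and 201 FPKM against 7.33, 7.34 and 6.67 FPKM. Here the mutant kept a measurable level, close to that in 24 μM sulfate (6.94 FPKM), and the difference was 25.6-fold. Taurine dioxygenases cleave sulfite from taurine. Among their genes, tdo-4 (NCU07610; chromosome IV) reached 524, 1226 and 1091 FPKM in starved wild type and 0.490, 0.656 and 0.440 FPKM in the mutant, a ratio of 1791. The gene tdo-2 (NCU01057) had 502, 873 and 705 FPKM against 0.114, 0.128 and 0.317 FPKM. The genes tdo-5, tdo-3 and suc-2 were 132-, 83.3- and 824-fold lower. Every starved mutant library was far under every starved wild-type library for these 5 genes, and tdo-3 and tdo-5 kept a few FPKM in the mutant where tdo-2, tdo-4 and suc-2 stayed under 1 FPKM. Genes annotated for the oxidation of other organic sulfur compounds behaved alike. The dibenzothiophene desulfurization gene NCU05888 was 438-fold lower and the methanesulfonate monooxygenase gene mox-7 (NCU10015) 53.0-fold lower. NCU10016, of a desulfurizing enzyme family, had 81.7, 258 and 187 FPKM in starved wild type and 0 implied reads in the 3 mutant libraries, at least 386-fold lower against a floor of 3 reads in each library. It shares 1452 bases with NCU15835. The glutamate decarboxylase gene gdc-3 (NCU06112), which the study lists with taurine metabolism, was 3.77-fold lower, while gdc-2 (5.21 to 7.86 against 8.13 to 9.29 FPKM) and xdh-2 (19.8 to 22.8 against 23.4 to 24.6 FPKM) were not called.

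The lower genes also included carriers for other compounds. These lists hold genes that the study named from these samples, so their direction is no independent evidence. All 4 amino acid and peptide permeases and all 8 transporters of the major facilitator superfamily (MFS) named in the study were at least 2-fold lower, with medians of 18.95-fold and 107-fold. The neutral amino acid permease gene aap-18 (NCU08880) had 94.1, 106 and 113 FPKM against 0.998, 0.947 and 1.46 FPKM. The peptide transporter gene mfs-9 (NCU05079) was one of the most abundant lower genes, with 617, 781 and 871 FPKM against 168, 170 and 153 FPKM, so a substantial level remained in the mutant. The oligopeptide transporter gene opt-3 (NCU07894) lay between them, at 5.82-fold, and shares 1905 bases with NCU07895. The log2 difference of opt-3 on the implied reads was smaller, at -1.0, with the limit given for cys-3. The pantothenate transporter-like gene mfs-29 (NCU07820) had 24.9, 75.0 and 82.6 FPKM in starved wild type and no reads at all in the starved mutant, at least 322-fold lower. NCU09039 was 340-fold and mfs-15 (NCU05884) 186-fold lower.

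Several of these genes were neighbours. The 139 lower genes held 11 runs of 2 or more adjacent genes, 28 genes in all, and the 42 higher genes held 0. The longest run was on chromosome VII, from 4157036 to 4172944, where NCU05883, mfs-15, mox-5, NCU05886, NCU05887 and NCU05888 were all lower. The xenobiotic monooxygenase gene NCU05883 in it had 137, 371 and 317 FPKM in starved wild type and 0.103, 0.0608 and 0.0503 FPKM in the mutant, where 3 implied reads remained. Its ratio of 3844 has a counting interval of 1315 to 18640 (95%, exact Poisson), and it shares 1463 bases with NCU05882. NCU05887, an oxidoreductase gene, was 1473-fold lower and the flavin-binding monooxygenase gene mox-5 (NCU05885) 158-fold lower, so this run held both large and moderate members. On chromosome III, from 976728 to 983387, suc-2, mfs-29 and the dimethylaniline monooxygenase gene dam-2 formed a run of 3. The genes aap-22 and cys-14, ars-1 and NCU06040, tdo-3 and aap-23, and NCU07609 and tdo-4 formed pairs, each with at least 1 gene of sulfur use or transport.

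Downstream of sulfide the mutant differed less. Of 43 tested genes of cysteine and methionine metabolism, 21 were lower (48.8%, against 17% of all genes), 8 of them at least 2-fold, and 10 were higher, 2 of them at least 2-fold. The share that was higher, 23.3%, was near the 20.5% of all genes. Leaving out single starved libraries or changing a setting kept the number of genes at least 2-fold lower between 5 and 8. Cystathionine γ-lyase forms cysteine from cystathionine, and its gene, cys-16 (NCU09230), had 315, 553 and 458 FPKM against 27.2, 28.5 and 28.6 FPKM, 15.7-fold lower and by far the widest gap of the list. For S-adenosylmethionine synthetase, eth-1 (NCU02657) had 608, 589 and 674 FPKM against 261, 268 and 284 FPKM, 2.30-fold lower (adjusted p = 3.8e-06). On the implied reads eth-1 was not called by limma-voom (log2 difference of -0.03, adjusted p = 0.88). Those reads summed to 8855 in starved wild type and 7538 in the mutant. That gap is narrower than the gap in the FPKM they derive from, so the implied reads cannot decide this call. The methionine synthase gene met-8 (NCU06512), the most abundant of the list, had 1381, 1230 and 1511 FPKM against 733, 702 and 937 FPKM, 1.74-fold lower. The cystathionine β-lyase gene met-17 (NCU00522) was 1.74-fold lower as well, whereas the cystathionine γ-synthase gene met-7 (NCU02430), for the step before it, was 1.31-fold higher. The gene met-21, annotated for O-acetylhomoserine, was 2.65-fold and the homocysteine S-methyltransferase gene met-20 3.48-fold lower. Methionine salvage returns the methylthio group left over from polyamine synthesis to methionine, and its genes in the list include met-23 (methylthioribose-1-phosphate isomerase), lower by 3.17-fold, the acireductone dioxygenase family gene NCU00147, lower by 2.204-fold, and met-25, lower by 2.01-fold. NCU06228 of the same list was not called, with a log2 ratio of -0.09. The spermine or spermidine synthase gene spe-4 (NCU04698), whose reaction releases the salvaged compound, had 33.5, 36.4 and 39.5 FPKM against 15.99, 16.02 and 16.4 FPKM. It was picked after its values were seen, and the spe genes within the list, spe-3 and spe-2, were not called, with log2 ratios of -0.14 and -0.32.

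Glutathione is the chief thiol of the cell and a store of cysteine. All 5 glutathione genes named in the study were lower, 4 of them at least 2-fold and, as with the carriers, the list comes from these samples. The glutamate-cysteine ligase gene gcl-1 (NCU01157), for the first step of synthesis, had 34.3, 46.3 and 45.3 FPKM against 15.9, 13.2 and 14.3 FPKM, 2.90-fold lower. The glutathione reductase gene gtr-1 (NCU03339) was 2.05-fold lower and the transferase gene gst-6 (NCU00549) 3.05-fold lower. On the implied reads gtr-1 had a log2 difference of -0.26, with the limit given for cys-3. The transferase gene gst-4 (NCU10521) differed from gcl-1, gtr-1 and gst-6. It had 24.4, 29.6 and 19.9 FPKM against 7.05, 6.09 and 6.36 FPKM in starvation, and 36.4 against 10.1 FPKM on average in 24 μM sulfate. The mutant was 3.79-fold lower in starvation and the interaction test gave an adjusted p of 0.96, so a dependence on the medium was not detected.

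Other genes at least 2-fold lower, picked for description after their values were seen, encode secreted or vacuolar peptidases and redox proteins. The proteinase T gene spr-7 (NCU07159) was the most abundant of all lower genes, with 1277, 2662 and 2902 FPKM in starved wild type and 122, 102 and 67.5 FPKM in the starved mutant, 23.5-fold lower. The metalloprotease gene mpr-8 (NCU07200) had 1135, 1563 and 1741 FPKM against 276, 252 and 196 FPKM. In both genes starved wild-type replicate 1 was the lowest of its group and still far above each mutant library. The tripeptidyl-peptidase gene tpp-2 (NCU08418) was 8.37-fold, the endothiapepsin gene apr-10 (NCU08739) 6.15-fold, the aminopeptidase gene lap-2 (NCU04994) 8.29-fold and the serine carboxypeptidase gene scp (NCU00831) 3.15-fold lower. On the implied reads scp was not called (log2 difference of -0.25, adjusted p = 0.12). That gap is narrower than the gap in FPKM, so these reads cannot decide the call of scp. Rehydrin, a peroxiredoxin encoded by rhd (NCU06031), had 945, 967 and 1026 FPKM against 211, 211 and 205 FPKM, 4.68-fold lower with very little spread in either strain. The glutaredoxin gene grd-2 (NCU01219) was 3.15-fold lower (a log2 difference of -0.50 on the implied reads, with the limit given for cys-3). The peptide methionine sulfoxide reductase gene pmsr-1 (NCU10029), whose product repairs oxidized methionine, was 3.94-fold lower. The endoplasmic reticulum chaperone gene grp78 (NCU03982) had 510, 619 and 655 FPKM against 294, 288 and 280 FPKM, and the protein disulfide isomerase gene NCU09223 was 2.103-fold lower. Genes of glutamate and γ-aminobutyrate breakdown, gdh-1 (glutamate dehydrogenase, 3.63-fold), glu-2 (4-aminobutyrate aminotransferase, 2.18-fold) and suc-3 (succinate semialdehyde dehydrogenase, 2.17-fold), were lower too. For glu-2 the implied reads differed by -0.37 on the log2 scale, with the limit given for cys-3. The pheromone gene mfa-1 (NCU16992) had 176, 47.6 and 70.5 FPKM against 20.14, 29.3 and 31.1 FPKM. Its call was lost without starved wild-type replicate 1 (adjusted p = 0.072) or without mutant replicate 1 (adjusted p = 0.069), and in 24 μM sulfate the means were 109 FPKM in wild type and 31.1 FPKM in the mutant.

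Summed over the 139 lower genes, the share of all FPKM was 3.19%, 5.15% and 4.94% in starved wild type and 0.832%, 0.812% and 0.786% in the starved mutant. With sulfate it was 0.824% to 0.925% in wild type and 0.783% to 0.841% in the mutant. These genes thus took about the same share in the starved mutant as in either strain with sulfate, and only starved wild type stood out. Since the genes were chosen by the starved difference, this is a description. For the 42 higher genes the shares were 0.304%, 0.278% and 0.268% in starved wild type and 0.703%, 0.632% and 0.597% in the starved mutant, with 0.411% to 0.477% in wild type and 0.429% to 0.629% in the mutant in 24 μM sulfate. Here starved wild type was the lowest group, and the starved mutant overlapped the mutant with sulfate. Without starved wild-type replicate 1 the 2-fold rule gave 158 lower and 66 higher genes, 138 and 41 of which were among the 139 and 42.

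**Figure D3:**
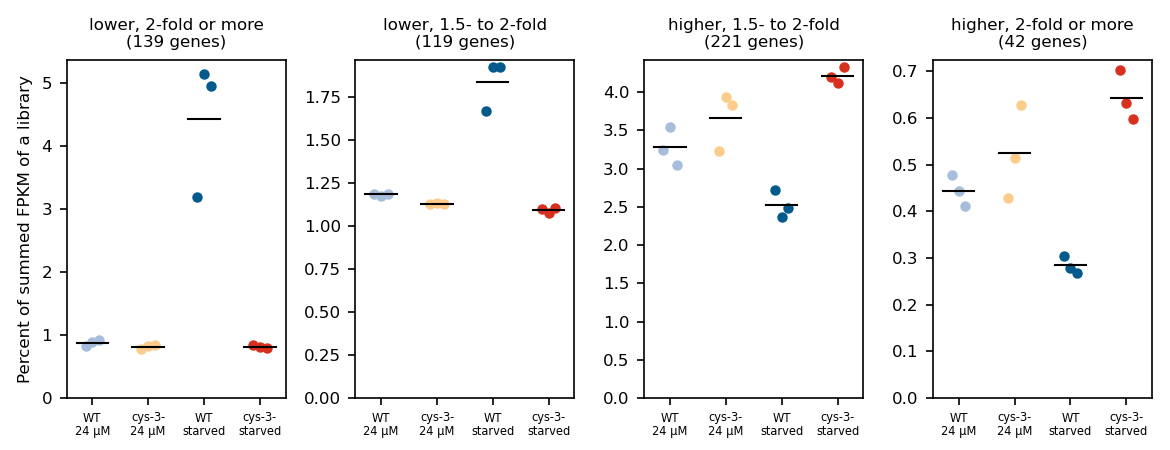
Percent of the summed FPKM of a library taken by the genes at least 2-fold lower (139), 1.5- to 2-fold lower (119), 1.5- to 2-fold higher (221) and at least 2-fold higher (42) in the starved cys-3- mutant, 1 point per library and a bar at each group mean. The lower genes take 3.19% to 5.15% in starved wild type and at most 0.925% elsewhere, and the higher genes sit lowest in starved wild type.

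CYS-3 binding in vitro had been mapped by the study with DAP-seq, in which protein made in vitro and held on beads selects genomic DNA fragments. Of the 5035 tested genes, 363 were on its list of bound genes (7.2%). Of the 139 genes at least 2-fold lower, 66 were on that list (47.5% of them, and 18.2% of the 363). The share rose with the size of the difference. It was 90.7% (39 of 43) among genes at least 10-fold lower, 31.2% (5 of 16) between 5- and 10-fold and 27.5% (22 of 80) between 2- and 5-fold. At 1.5- to 2-fold lower it was 11.8%, under 1.5-fold 6.7%, and among genes without a called difference 5.7%. The genes at least 2-fold higher held 3 of the list (7.1% of the 42, and 0.8% of the 363), close to the share of all genes. Among the 4 genes at least 10-fold lower and off the list was spr-7, and cys-3 itself and cys-2 were off the list as well. For cys-3, the study cites earlier binding assays in which CYS-3 bound its own promoter, a site that DAP-seq missed. The overlapping gene NCU03535 was on the list but under the minimum for testing. Without single starved libraries or under other settings, between 62 and 71 genes of the list were at least 2-fold lower.

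Lists of housekeeping function were also counted below 2-fold. Among 30 proteasome genes, 16 were lower by less than 1.5-fold (53.3%, against 17% of all genes lower at any fold), for example rpn-6 at 1.32-fold, with a median log2 ratio of -0.20 for the list. The one gene of that list that was higher was rpn-4 (NCU01640; 1.85-fold, adjusted p = 0.00013), named after the yeast transcription factor that regulates proteasome genes. Of 22 genes of the TCA and glyoxylate cycles, 9 were lower by less than 1.5-fold (40.9%) and 3 were higher (13.6%). Of 29 genes of respiratory complex I, 7 were lower (24.1%, near the 17% of all genes) and none was higher. These counts were sensitive to the processing: under the alternatives 8 to 17 proteasome, 5 to 10 TCA and glyoxylate cycle and 2 to 7 complex I genes were lower. Quantile normalization gave 12, 6 and 3, and the implied reads, with the limit given above, 8, 5 and 3. Of 10 heat shock protein genes, 4 were lower (against 17% of all genes), namely hsp60 (1.71-fold), hsp80 (1.52-fold), hsp90a (1.41-fold) and hsp70-1 (1.31-fold). In the same list hsp30 was 2.22-fold higher. The list was drawn by gene symbol and does not hold the small heat shock protein gene hsp30-2, which is described below as higher. None of 7 cytosolic ribosomal protein genes was called, with a median log2 ratio of -0.14, but the sign of that median flipped to 0.14 on the implied reads. Of 8 tested menadione-induced genes, whose name refers to an oxidant, 4 were lower (against 17% of all genes). Among the lower ones were mig-2 at 3.91-fold, mig-3 at 2.51-fold and mig-4 at 2.26-fold. The log2 difference of mig-2 on the implied reads was -0.99, with the limit given above. The 1 higher gene of that list was mig-10, with a log2 ratio of 0.49 (against 20.5% of all genes higher). The abundant superoxide dismutase gene sod-1 (NCU02133) had 580 to 663 FPKM in starved wild type and 461 to 464 FPKM in the mutant, 1.34-fold lower (adjusted p = 0.0007). The serine endopeptidase gene spr-10 (1.90-fold) and the peroxiredoxin gene NCU09534 (1.77-fold) were among the most abundant genes between 1.5- and 2-fold.

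**Figure D4:**
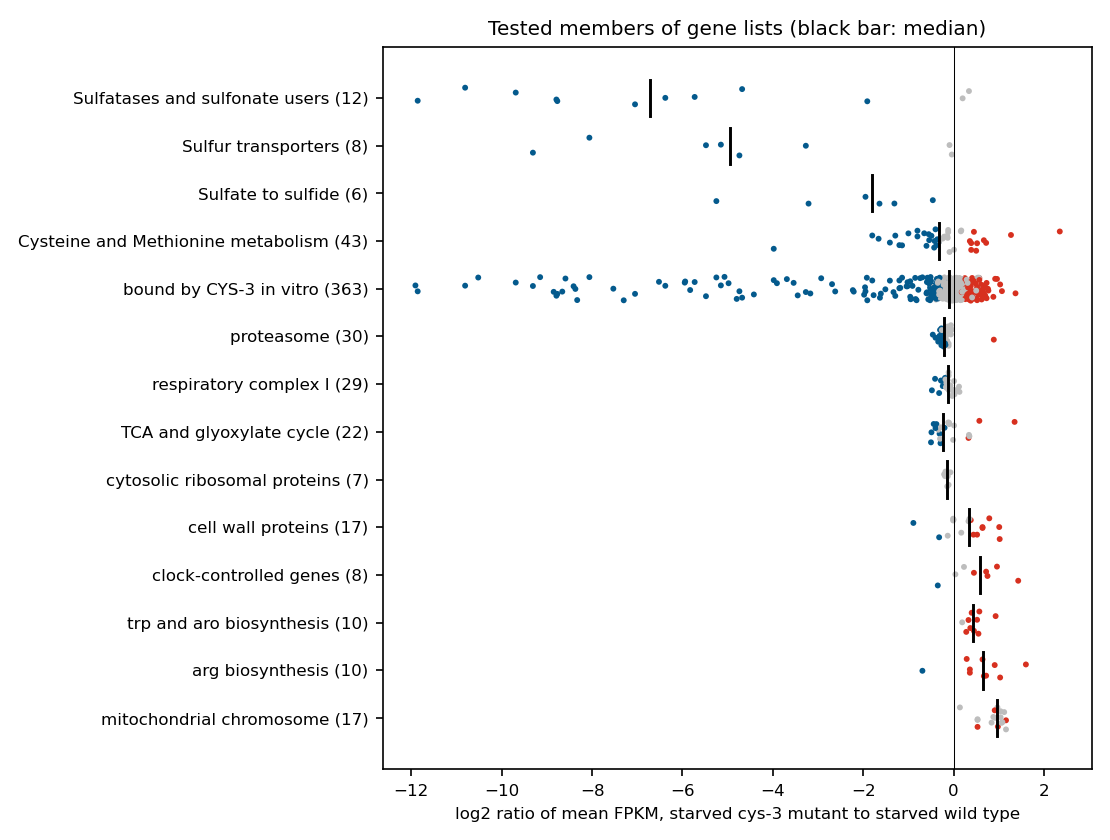
Log2 ratio of mean FPKM, starved cys-3- mutant to starved wild type, of the tested members of 14 gene lists (number of members in parentheses), with called genes in blue (lower) and red (higher), other genes in grey, and a black bar at each median. Sulfatases and sulfur transporters reach far to the left, whereas arg, trp and aro biosynthesis, clock-controlled and mitochondrial genes lie mostly to the right of 0. Of the arg genes, arg-3 is the farthest at 1.60, and cys-22 of the cysteine and methionine list lies at 2.35.

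Among the genes that the mutant expressed more, the cysteine dioxygenase gene cys-22 (NCU06625) stood out. Cysteine dioxygenase oxidizes cysteine to its sulfinate and so consumes it. The gene had 15.6, 9.65 and 10.8 FPKM in starved wild type and 59.9, 62.4 and 61.4 FPKM in the starved mutant, 5.09-fold higher (log2 difference of 2.28 ± 0.17, SE; adjusted p = 8.8e-07). In 24 μM sulfate the means were 22.6 and 65.9 FPKM (adjusted p = 0.00073), so the mutant held the same high level in both media, and the interaction did not pass (adjusted p = 0.053).

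The widest upward ratio belonged to NCU03534, an uncharacterized gene on chromosome II (333578 to 334814), the second annotated gene along from cys-3. It had 0.942, 2.1 and 1.77 FPKM in starved wild type and 14.2, 11.4 and 14.4 FPKM in the starved mutant, 8.32-fold higher (adjusted p = 1.2e-06). In 24 μM sulfate wild type had 0.0562, 0 and 0.0591 FPKM and the mutant 10.7, 12.6 and 11.7 FPKM, so the gene was at about the same level in all 6 mutant libraries. The next gene, het-6 (NCU03533), stayed under the 10 FPKM minimum and was not tested. It had 4.47 to 5.54 FPKM in starved wild type and 8.03 to 9.16 FPKM in the starved mutant, and 5.42 and 9.62 FPKM on average in 24 μM sulfate. On the other side of cys-3, NCU03537, NCU03538 and un-24 were not called: the means of NCU03537 and NCU03538 were 1.12-fold and 1.11-fold higher in the mutant and that of un-24 was 1.09-fold lower. These genes flank the hygromycin resistance cassette, whose part in their levels was not tested.

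**Figure D5:**
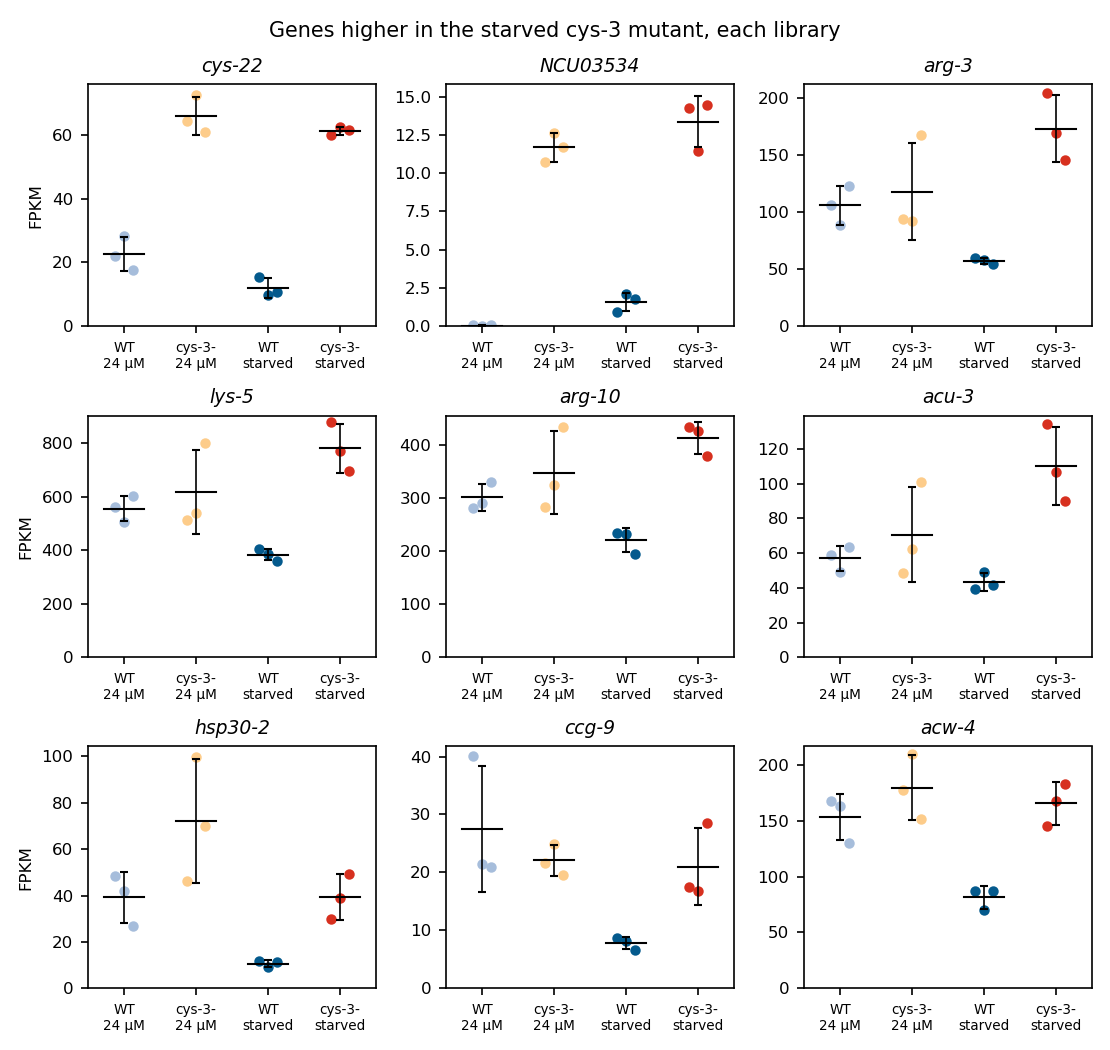
FPKM of 9 genes higher in the starved cys-3- mutant, 1 point per library, with the mean and SD of each group (n = 3) and the 24 μM sulfate groups on the left of each panel. For cys-22 and NCU03534 the mutant is high in both media, while for arg-3, lys-5, arg-10, acu-3, hsp30-2, ccg-9 and acw-4 starved wild type is the lowest of the 4 groups.

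Of 51 tested genes of amino acid biosynthesis, 36 were higher (70.6%, against 20.5% of all genes) and 2 were lower, with a median of 1.30-fold, and between 31 and 38 were higher under the alternatives. At least 2-fold differences were found for 3 of them, arg-3, arg-12 and lys-5. On the implied reads these 3 were still called but under 2-fold, with log2 differences of 0.59, 0.56 and 0.39. These gaps are narrower than those in FPKM, so the implied reads cannot decide whether the 3 genes reach 2-fold. In 24 μM sulfate the median log2 ratio of the same 51 genes was -0.03 and none was called. Within wild type, starvation against 24 μM sulfate lowered 23 of the 51 and raised 2, with a median log2 ratio of -0.30. Of all genes, 11.8% were lowered and 11% raised there. Within the mutant 0 of the 51 were called in either direction, with a median of 0.13. Arginine genes were the most marked subset, which was set apart after the values were seen: 9 of 10 were higher, with a median of 1.57-fold, and arg-15 was lower. The gene arg-3 (NCU02677), for the large subunit of arginine-specific carbamoyl phosphate synthetase, had 59.5, 57.9 and 54.6 FPKM in starved wild type and 205, 169 and 146 FPKM in the starved mutant, 3.02-fold higher (adjusted p = 0.00013). It shares 1101 bases with NCU02678. Both strains lay between in 24 μM sulfate, with means of 106 and 118 FPKM. The ornithine carbamoyltransferase gene arg-12 (NCU01667) was 2.04-fold, the argininosuccinate lyase gene arg-10 (NCU08162) 1.87-fold and the argininosuccinate synthetase gene arg-1 (NCU02639) 1.59-fold higher. The lysine pathway gene lys-5 (NCU05526) had 404, 386 and 360 FPKM against 877, 770 and 694 FPKM, 2.03-fold higher. Of 10 tryptophan and aromatic genes 9 were higher (against 20.5% of all genes), among them aro-6 (1.91-fold), with a median of 1.34-fold. These 10 are another subset of the 51, so their count is no separate evidence. The serine pathway genes ser-2 and ser-7, which make the precursor of the cysteine backbone, were 1.59-fold and 1.64-fold higher. Within this list the 2 lower genes were arg-15 and the methionine synthase gene met-8. The cross-pathway control genes cpc-3 (NCU01187), for a kinase that senses uncharged tRNA, and cpc-1 (NCU04050), for the bZIP factor that activates amino acid genes, were 1.58-fold and 1.26-fold higher (adjusted p = 0.00074 and 0.033). The small difference of cpc-1 missed 0.05 under 7 of the alternatives. The neutral amino acid permease gene mtr (NCU06619) had 255 to 366 FPKM in starved wild type and 525 to 585 FPKM in the starved mutant, 1.79-fold higher.

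Other genes at least 2-fold higher had varied roles. The isocitrate lyase gene acu-3 (NCU04230), for the glyoxylate cycle, had 39.3, 49.0 and 41.8 FPKM against 135, 107 and 89.9 FPKM, 2.55-fold higher, and the glycine cleavage gene gly-3 (NCU02727) was 2.59-fold higher, though it shares 1581 bases with NCU02726. The monocarboxylate transporter gene mfs-3 (NCU05045) had 6.73, 4.99 and 5.45 FPKM against 22.7, 21.4 and 16.4 FPKM. The small heat shock protein genes hsp30-2 (NCU07232; 3.68-fold) and hsp30 (NCU09364; 2.22-fold) were higher in the mutant, but in starvation both strains were under their levels in 24 μM sulfate: hsp30 had means of 45.5 and 101 FPKM in starvation and 212 and 201 FPKM with sulfate. The call of hsp30 was lost without mutant replicate 3 (adjusted p = 0.06). Of 17 cell wall protein genes, 8 were higher (47.1%, against 20.5% of all genes) and 2 lower (11.8%, against 17%), with acw-4 (NCU09263) at 2.03-fold. It shares 121 bases with met-25, a lower gene. Of 8 clock-controlled genes, 5 were higher (62.5%) and ccg-16 was lower, with ccg-9 (NCU09559) at 8.62, 8.15 and 6.61 FPKM against 17.5, 16.9 and 28.6 FPKM. The alternative oxidase gene aod-1 (NCU07953), for a bypass of the cytochrome chain, had 35.7, 37.6 and 33.1 FPKM against 66.8, 72.1 and 73.1 FPKM, 1.99-fold higher and just under the 2-fold line (adjusted p = 4.6e-06).

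All 17 tested genes of the mitochondrial chromosome had a higher mean in the starved mutant, with a median of 1.96-fold, but 4 were called (23.5%, near the 20.5% of all genes). Cytochrome b, encoded by cob, had 9.55, 3.34 and 7.02 FPKM in starved wild type and 18.3, 13.3 and 12.8 FPKM in the mutant, and its call (adjusted p = 0.03) was lost when any of 5 of the starved libraries was left out. Mitochondrial genes took 0.118%, 0.0467% and 0.0777% of FPKM in starved wild type and 0.149%, 0.137% and 0.127% in the starved mutant. The libraries with sulfate gave 0.0556% to 0.166% in wild type and 0.132% to 0.152% in the mutant, with a median log2 ratio of 0.84. These libraries were made from poly(A) RNA. Without starved wild-type replicate 1 the number called rose to 10, while leaving out any other starved library lowered it to between 1 and 3.

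The 5 most abundant genes with a called difference under 1.5-fold were all higher, emp-7 (1.22-fold) among them. The glyceraldehyde-3-phosphate dehydrogenase gene gpd-1 (NCU01528) had 13070, 12070 and 11490 FPKM in starved wild type and 15170, 15510 and 16190 FPKM in the starved mutant, 1.28-fold higher (adjusted p = 0.0021). The thiamine synthesis genes nmt-1 (NCU09345) and NCU06110 were 1.20-fold and 1.21-fold higher, but their log2 differences turned to -0.04 and -0.02 under quantile normalization. The copper metallothionein gene cmt (NCU05561), for a small protein rich in cysteine, was 1.36-fold higher (adjusted p = 0.014). The mutant libraries were above every wild-type library in each of these 4 genes, yet by less than 1.5-fold, and the choice of scaling decided the sign for the thiamine genes.

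Strain differences in 24 μM sulfate, from other libraries, were set beside those in starvation. Of the 139 genes at least 2-fold lower in starvation, 70 had a lower and 69 a higher mean in the mutant with sulfate, beside 1672 and 1474 of the 3146 genes without a call. Among the 599 genes lower by less than 1.5-fold, 69.8% were also lower with sulfate. On the other side the share was larger: 81.0% of the 42 genes at least 2-fold higher and 83.7% of the 221 genes between 1.5- and 2-fold were also higher with sulfate, by a median of 1.17-fold and 1.13-fold. With sulfate, 6 of the 139 lower genes and 2 of the 42 higher genes were called, which are the 8 named for that medium.

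The difference in starvation response between the strains was tested as an interaction, which passed for 698 genes (13.9%), 388 with a lower and 310 with a higher ratio in the mutant. The extremes were -9.14 and 1.75 on the log2 scale. This test uses the same starved libraries as the strain comparison and is no second measurement of it. By the same rule and with no fold requirement, starvation changed 1148 genes in wild type, 592 downward (11.8%) and 556 upward (11%), and 21 genes in the mutant, 5 downward (0.0993%) and 16 upward (0.318%). At least 2-fold changes numbered 17 downward (0.338%) and 140 upward (2.78%) in wild type, and 0 downward (0%) and 1 upward (0.0199%) in the mutant. In the mutant 851 genes reached an unadjusted p under 0.05. Leaving out any 1 of the starved mutant libraries took the 21 to 0.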

How the data were processed

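RNA-seq was done on poly(A) RNA, as unstranded single-end reads. Per the labels and the submitters' processing notes, the authors aligned reads with HISAT2 2.1.0 to the N. crassa OR74A genome (NC12) and estimated FPKM with Cufflinks 2.2.1 and Cuffnorm 2.2.1. The deposited values are these FPKM with confidence bounds, from which reads were implied as (2F/(H − F)) squared, with F the FPKM and H its upper bound. Of 16468 values of at most 20 reads, 77.3% were within 0.05 of a whole read. Larger values were not checked in this way, and for genes such as cys-3 and eth-1 they differed less between the strains than the FPKM did. Results on the implied reads therefore cannot decide the calls of such genes. Of 9758 genes, 4 with a failed status were left out, and 9753 were matched to RefSeq names.

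log2(FPKM + 1), computed here from the deposited FPKM, was fitted with limma 3.58.1 (R 4.3.3), 1 mean per group over all 12 libraries, with a variance trend and Benjamini-Hochberg adjustment over 5035 genes. Fold changes are ratios of group means. A log2 difference given with an SE is on the log2(FPKM + 1) scale and understates the change of low genes. Intervals and floors (3 reads per library) cover counting error only.

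Genes were named by rule: all of the sulfur lists, called cysteine and methionine genes, the 10 with the largest ratio and the 10 most abundant in each direction, the most abundant below 2-fold, up to 4 per list with the lowest p, and those beside cys-3. Others were picked after their values were seen: NCU10016, mox-5, dam-2, tpp-2, apr-10, scp, lap-2, mfa-1, pmsr-1, hsp30, gly-3, gdh-1, glu-2, suc-3, spe-4, NCU09223, arg-10, ser-2, ser-7, aro-6, cpc-1, cpc-3, aod-1, met-7, met-17, NCU06228 and sod-1. The members and lists were chosen with earlier results of these data known.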

Additional observations from a re-analysis of the deposited data

Results flagged for a closer look

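The response to starvation depended on the strain for 698 genes by the test of the interaction itself (limma, adjusted p under 0.05).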

How the results depend on the processing

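With the minimum lowered to 1 FPKM the genes at least 2-fold higher numbered 104, and 108 with no minimum, while those lower numbered 179 and 189. The strain difference in 24 μM sulfate gave 7 genes with no minimum. The mutant's own response to starvation, 21 genes, was the least stable: it gave 11 with a minimum of 1 FPKM, 8 with no minimum, 5 without the variance trend and 8 with limma-voom on the implied reads. Leaving out each of the 6 starved libraries in turn (the libraries with sulfate were all kept) gave 127 to 158 lower and 35 to 66 higher genes, 463 to 742 lower and 647 to 902 higher genes under 2-fold, both smallest without mutant replicate 3, 453 to 735 interaction genes, fewest without starved wild-type replicate 3, 9 to 17 genes in 24 μM sulfate, 771 to 1027 in the wild-type response and 0 to 20 in the mutant response. The replicate numbers did not pair the libraries: same-numbered starved libraries had correlations of -0.064, -0.118 and -0.062 in their deviations. With the replicate number as a block, 140 genes were lower, 42 were higher, 521 passed the interaction and 3 passed in the mutant response. The sign of scon-3 turned under quantile normalization (0.02), on the implied reads (0.13) and without starved wild-type replicate 1 (0.02, in a range of -0.11 to 0.02 on leaving out single starved libraries), and that of cys-23 on the implied reads (0.03). Quantile normalization turned nmt-1 to -0.04 and NCU06110 to -0.02. The cause of these shifts was not tested. Depth limits the ratios of genes with few mutant reads.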
